A study of Bos taurus with 20 samples.

Results

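PTGS2 (ENSBTAG00000014127) encodes prostaglandin-endoperoxide synthase 2, also called cyclooxygenase 2, and is described here across 20 whole bovine conceptuses. It is 1 of 27607 genes counted. It was taken by its identifier, after its chromosome in the files was found to be 16. On the assembly ARS-UCD1.2 it spans chromosome 16 from 67728006 to 67735629 on the minus strand, with 10 exons of 3489 bases in all, and 0 other annotated genes overlap it.

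The series asks how interleukin 6 (IL6, a cytokine), given to embryos in culture, bears on elongation of the conceptus, the embryo with its extraembryonic membranes. Recombinant bovine IL6 at 100 ng/ml, or its carrier for the controls, was given on day 5 after in vitro fertilisation and was left in place up to day 7.5, the day of collection for embryo transfer. RNA was later sequenced from conceptuses that were ovoid or tubular, namely 6 controls and 6 IL6 conceptuses of ovoid shape, and 4 of each treatment of tubular shape. The ovoid controls held 3 females and 3 males, the ovoid IL6 group 4 and 2, the tubular controls 1 and 3, and the tubular IL6 group 2 and 2. The labels used here give neither the day of recovery nor the breed. Each library holds a whole conceptus, so fewer cells of a type and less RNA per cell cannot be told apart.

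Prostaglandins are lipid signals made from arachidonic acid, which phospholipases release from membranes. Cyclooxygenases turn it into prostaglandin H2, from which terminal synthases make prostaglandin E2, prostaglandin F2 alpha, prostacyclin and others. PTGS2 is the inducible cyclooxygenase, while PTGS1 is the form most tissues make all the time. In ruminants the trophectoderm of the elongating conceptus is known to release prostaglandins, which act on the conceptus itself and on the endometrium through membrane and nuclear receptors.

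Counts assigned to genes ranged from 329666 to 13940103 per library. Ovoid control replicate 3 was the shallowest, and the other 19 libraries, called deep below, had over 1000000 counts. Across genes, its Spearman correlation to the rest had a median of 0.625, and ovoid IL6 replicate 1 came next at 0.876. Each title starts with a code that the labels do not explain. Codes c201, c5036 and c8086 hold controls alone and codes c6186 and c9007 IL6 conceptuses alone, so code and treatment cannot be told apart, and p-values for IL6 would be too small wherever conceptuses of 1 code resemble each other.

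PTGS2 RNA was present in all 20 conceptuses, from 18.6 to 1207 CPM (counts per 1000000 after TMM scaling), with a median of 304. Tubular controls had the highest mean level, 630 ± 68.6 CPM (SD, n = 4), followed by tubular IL6 at 517 ± 497 CPM (SD, n = 4), ovoid controls at 289 ± 116 CPM (SD, n = 6) and ovoid IL6 at 163 ± 144 CPM (SD, n = 6). In that order the tubular groups overlapped each other, as did the ovoid groups, and tubular IL6 overlapped both ovoid groups. Tubular controls lay wholly above both ovoid groups. The share of genes so separated is given below for ovoid controls. It was not computed for ovoid IL6, which differs from tubular controls in treatment and title code as well as shape.

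The 4 tubular controls measured 604, 679, 692 and 546 CPM in replicates 1 to 4, a narrow band with 1.27 as the ratio of its highest to its lowest value. The tubular IL6 conceptuses measured 527, 1207, 264 and 69.8 CPM. The highest and the third lowest of all 20 values therefore both came from tubular IL6. In ovoid controls the lowest value was 129 CPM, the median 298 and the highest 475. The lowest came from the shallow replicate 3, with 44 PTGS2 counts, whose exact (Clopper-Pearson) 95% interval is 97.0 to 179 CPM before TMM scaling. Without it the ovoid controls averaged 321 ± 96.1 CPM (SD, n = 5). In ovoid IL6 the lowest value was 18.6 CPM, the median 106 and the highest 386. Replicate 1, the lowest, had 85 PTGS2 counts among 5032351 (16.9 CPM before TMM scaling, exact 95% interval 13.5 to 20.9), and replicate 4 was next at 68.3 CPM. The 4 lowest values of that group lay below every ovoid control, and the other two, 294 and 386 CPM, lay within the control range. These intervals cover counting error only.

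**Figure D1:**
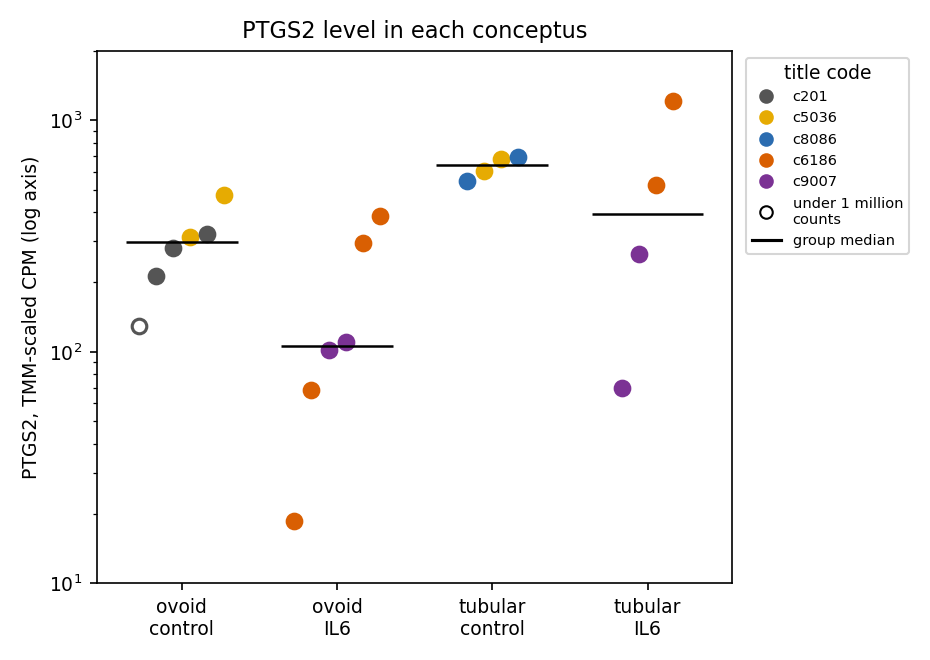
PTGS2 in each of 20 conceptuses, as TMM-scaled CPM on a log axis, by group, with colour for the title code, an open symbol for the shallow ovoid control replicate 3 and a line for the group median. The 4 tubular controls sit together between 546 and 692 CPM, above all ovoid controls, while the highest value is 20.7 times the lowest in ovoid IL6 and 17.3 times in tubular IL6.

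The title codes of the IL6 conceptuses differed in range. Code c6186 held both the lowest and the highest value of the series: its 4 ovoid conceptuses ran from 18.6 to 386 CPM and its 2 tubular ones measured 527 and 1207. Code c9007 measured 102 and 110 CPM in its 2 ovoid and 69.8 and 264 in its 2 tubular conceptuses. Among controls, code c201 averaged 236 ± 84.8 CPM (SD, n = 4, all ovoid), while c5036 measured 313 and 475 in ovoid and 604 and 679 in tubular conceptuses. Code c8086 held 2 tubular controls, at 546 and 692 CPM. All 4 conceptuses of c9007 thus lay below every tubular control, a separation picked out from these values, with no share over all genes computed.

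Relative to other genes, PTGS2 was among the abundant transcripts of tubular controls. There it ranked 152nd to 199th by CPM, within the top 0.787% to 1.06% of the genes with a count in each library. In ovoid controls its rank ran from 249 to 1419 with a median of 570. In ovoid IL6 it ran from 347 to 7690, with a median of 2166, and in tubular IL6 from 50 to 3297. Ranks by CPM compare genes of different length, so levels were also set per kilobase of exon. On that scale PTGS2 averaged 181 ± 19.7 CPM per kilobase (SD, n = 4) in tubular controls and ranked 390th to 453rd, and averaged 82.8 ± 33.4 (SD, n = 6) in ovoid controls, at a median rank of 1093 and a last rank of 2296. In ovoid IL6 the mean was 46.8 ± 41.2 CPM per kilobase (SD, n = 6), at ranks 653 to 9546, and in tubular IL6 it was 148 ± 142 (SD, n = 4), at ranks 159 to 4745. In ovoid IL6 replicate 1, the last of these libraries, 51.2% of the detected genes ranked as high or higher per kilobase.

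**Figure D2:**
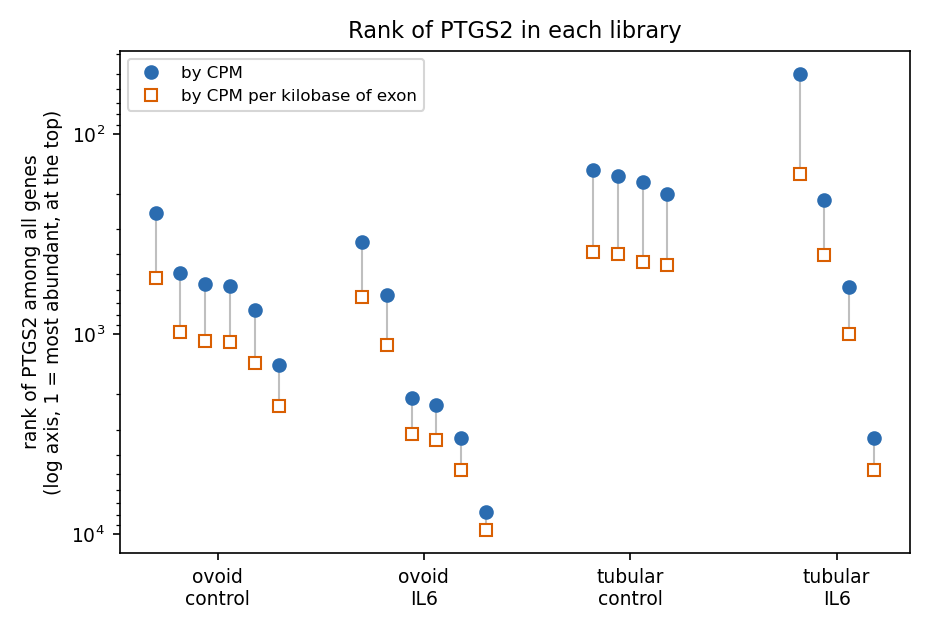
Rank of PTGS2 among all genes in each library, on a log axis with the most abundant gene at the top, by CPM (filled circles) and by CPM per kilobase of exon (open squares). Tubular controls sit at ranks 152 to 199 by CPM, and the IL6 groups run from rank 50 to rank 7690.

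Tubular conceptuses held more PTGS2 RNA than ovoid ones on average within each treatment, but PTGS2 did not pass the threshold in the edgeR test across all genes, an adjusted p under 0.05, which 0% of genes passed. Among controls all 4 tubular values lay above all 6 ovoid values. Of 14875 genes tested, 0.155% were higher in tubular controls without overlap and 0.141% lower. An unadjusted p under 0.05 went to 0.229% toward higher and 1.41% toward lower values, and PTGS2 is in neither share. The edgeR log2 fold change was 1.17 ± 0.67 (SE, 95% interval -0.23 to 2.57, adjusted p = 0.99983), a 2.25-fold higher fitted level. An exact two-sided permutation test of the PTGS2 log2 CPM alone gave a mean difference of 1.23 and p = 0.0143 (adjusted p = 0.0714 over the 5 such tests made), where 0.00476 is the smallest p that 210 splits allow. With the shallow ovoid control left out, the mean difference was 1.02 (exact permutation p = 0.0159, adjusted p = 0.0794), and the groups still did not overlap. These permutations took no account of the title code, and code c201 holds 4 of the 6 ovoid controls and no tubular one. Without c201 the mean difference was 0.70 (exact permutation p = 0.0667, adjusted p = 0.333), where 0.0667 is the smallest p that 15 splits allow, and the edgeR value was 0.75 (adjusted p = 1). With only the control groups in the fit, edgeR gave 1.16 ± 0.31 (SE, adjusted p = 0.9999).

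Among IL6 conceptuses the shapes overlapped: tubular replicate 4, at 69.8 CPM, lay above only 2 of the 6 ovoid IL6 conceptuses. Of all genes tested, 0.45% were higher in tubular IL6 without overlap and 0.289% lower. With an unadjusted edgeR p under 0.05, 1.3% were higher, PTGS2 among them, and 1.5% lower. Its edgeR log2 fold change was 1.64 ± 0.66 (SE, 95% interval 0.25 to 3.03, adjusted p = 0.99997). The exact permutation test gave a mean difference of 1.60 in log2 CPM (p = 0.2, adjusted p = 0.333). Without tubular IL6 replicate 2, the highest conceptus, the edgeR value was 0.75 (adjusted p = 0.987). Without code c6186 it was 0.76 (edgeR adjusted p = 1).

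Averaged over both treatments, the log2 fold change of tubular over ovoid conceptuses was 1.41 ± 0.47 (SE, 95% interval 0.43 to 2.38, edgeR adjusted p = 0.914), or 2.65-fold. By p, PTGS2 stood 51st of 14875 genes in this comparison. Unadjusted p-values under 0.05 were given to 1.63% of the genes toward higher values in tubular conceptuses, 243 genes with PTGS2 among them, and to 2.68% toward lower ones. edgeR called 0 of the 14875 genes (0%), and DESeq2 also called 0, with 981 at an unadjusted p under 0.05. Only 1.83% of genes had a larger absolute fold change. DESeq2 gave 1.39 ± 0.47 for PTGS2 (SE, adjusted p = 0.534). Without tubular IL6 replicate 2 the edgeR value was 0.92 (adjusted p = 0.868), and without ovoid IL6 replicate 2 it was 1.87 (adjusted p = 0.74).

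The 3 codes that hold both shapes allowed a comparison within code. The difference in mean log2 CPM, tubular minus ovoid, was 0.73 in c5036, 2.86 in c6186 and 0.36 in c9007, positive in 3 of 3. In c5036 and c6186 every tubular conceptus was above every ovoid one, and in c9007 they overlapped. Only 6 arrangements of shape exist in c5036 and 15 in c6186, and the share of all genes so separated was not computed. With shape exchanged only within codes, the mean of 1.32 had an exact permutation p = 0.0519 over 540 arrangements. An edgeR fit with the code as a term gave 1.38 ± 0.49 (SE, adjusted p = 0.9999).

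IL6 conceptuses had lower PTGS2 means than controls of the same shape, but PTGS2 passed the threshold in no comparison of treatment, and in the tubular shape the sign of the fitted value depended on 1 conceptus. edgeR called 0% of genes for IL6 in either shape or over both. Of 14875 genes, DESeq2 called 86 in ovoid conceptuses, 143 over both shapes and 0 in tubular ones, where 629 had an unadjusted p under 0.05. PTGS2 is not among any of these. In ovoid conceptuses the edgeR log2 fold change of IL6 over control was -0.85 ± 0.60 (SE, 95% interval -2.11 to 0.41, adjusted p = 0.764). Of the genes tested there, 3.01% were lower and 5.33% higher with an unadjusted p under 0.05, and PTGS2 is not among them. Groups did not overlap in 0.0672% of genes toward lower and 0.148% toward higher values. The exact permutation test gave a mean log2 difference of -1.30 (p = 0.0844, adjusted p = 0.211). The edgeR value was -0.61 (adjusted p = 0.735) without ovoid IL6 replicate 1, the lowest conceptus, and -1.78 (adjusted p = 0.597) without replicate 2, the highest. After ovoid control replicate 3, the library of ovoid IL6 replicate 1 was the least like the rest. In tubular conceptuses the edgeR log2 fold change was -0.38 ± 0.76 (SE, 95% interval -1.97 to 1.21, adjusted p = 0.99967). It was 0.0625 (edgeR adjusted p = 0.9998) without tubular IL6 replicate 4, the lowest, and -1.18 (edgeR adjusted p = 1) without replicate 2, the highest. There 0.598% of genes were lower and 1.92% higher with an unadjusted p under 0.05, and 1.65% and 2.39% did not overlap in those directions. PTGS2 is in none of these shares. The exact permutation test gave -0.93 (p = 0.314, adjusted p = 0.393), where 0.0286 is the smallest p allowed.

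Averaged over both shapes, the IL6 value was -0.61 ± 0.49 (SE, 95% interval -1.64 to 0.41, edgeR adjusted p = 0.687), where 2.82% of genes were lower and 7.87% higher at an unadjusted p under 0.05. DESeq2 gave PTGS2 an adjusted p of 0.564 in this comparison. Tubular minus ovoid, the IL6 log2 fold changes differed by 0.47 ± 0.96 (SE, 95% interval -1.55 to 2.48, edgeR adjusted p = 1), with 0.511% and 0.121% of genes at an unadjusted p under 0.05 toward higher and lower values. Both intervals reach well to either side of 0, so they do not show that PTGS2 was alike with and without IL6.

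The IL6 values moved with the title code. With only c9007 as the IL6 arm, the tubular log2 fold change was -2.16 ± 0.54 (SE, edgeR adjusted p = 1), the ovoid one -1.69 ± 0.52 (SE, edgeR adjusted p = 0.902) and the average -1.92 ± 0.39 (SE, edgeR adjusted p = 0.729). With only c6186 as the IL6 arm, the average was -0.13 ± 0.51 (SE, edgeR adjusted p = 0.916) and the tubular value was 0.34 ± 0.83 (SE, edgeR adjusted p = 0.913). A fit with the code as a random block gave -1.30 ± 0.66 for the average (SE, limma adjusted p = 0.974). That fit averages log2 values. Without any block, the mean log2 CPM of IL6 minus control was already -1.30 in ovoid and -0.93 in tubular conceptuses. How much of the distance from the edgeR average goes with the code was not tested.

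PTGS2 levels of males and females overlapped. The 10 males ran from 18.6 to 679 CPM with a median of 350 and the 10 females from 68.3 to 1207 with a median of 279. The log2 fold change of males over females was -0.22 ± 0.48 (SE, 95% interval -1.23 to 0.80, edgeR adjusted p = 0.972). The mean log2 CPM of males was higher by 0.020 (permutation p = 0.976). In this comparison edgeR called 0.0538% of the genes, 8 in all, and PTGS2 was not one of them. At an unadjusted p under 0.05, 3.29% of genes were higher and 3.58% lower in males.

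**Figure D3:**
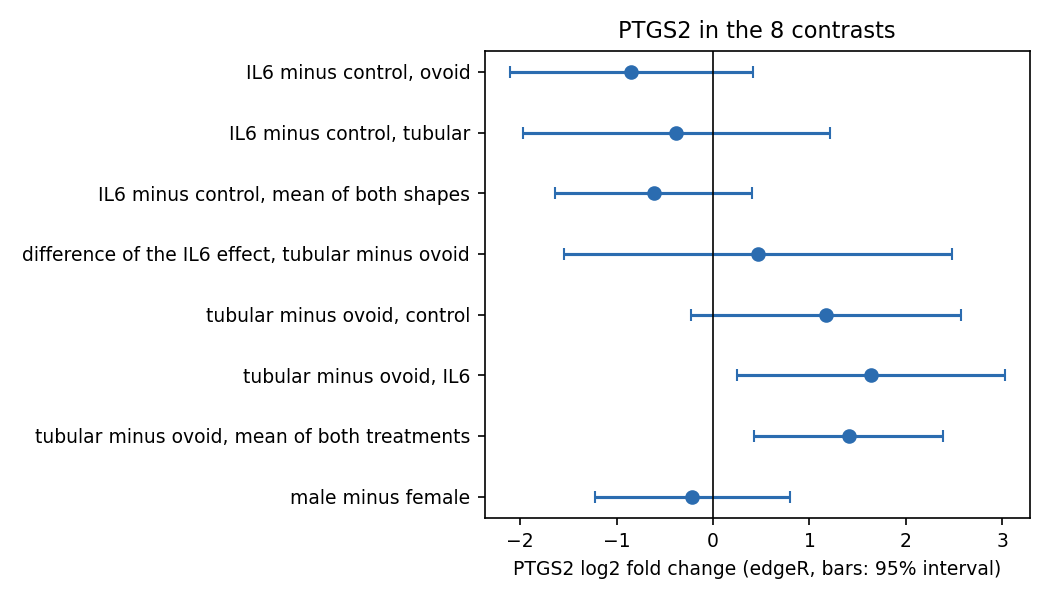
PTGS2 log2 fold changes of the 8 comparisons from the edgeR model of all 20 conceptuses, with bars for the 95% interval and a line at 0. The interval lies above 0 for shape among IL6 conceptuses (1.64) and for shape averaged over treatments (1.41), before adjustment over genes.

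PTGS2 differed more between conceptuses than most genes did. Over the 19 deep libraries the SD of its log2 CPM was 1.47, against a median of 0.44 over the 12632 genes averaging 1 or more on the log2 CPM scale, and 97.0% of those genes had a smaller SD. Of the 1419 genes with a mean level within 1 log2 unit of PTGS2, 16 had a larger SD.

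The SD was larger in the IL6 groups. In tubular IL6 the SD of the PTGS2 log2 CPM was 1.74, against 0.160 in tubular controls. In tubular controls 15.2% of genes had a smaller SD than PTGS2, so it was there steadier than most, while in tubular IL6 97.8% had a smaller one. Of the 1419 genes near its level, 1110 had a larger SD than PTGS2 in tubular controls and 12 in tubular IL6. The ratio of the SD in tubular IL6 to that in tubular controls was 10.9 for PTGS2. Its median over all genes was 1.19, and 44 of 12632 genes had a larger ratio. In ovoid conceptuses the SD was 1.56 with IL6 and 0.417 in the 5 deep controls, a ratio of 3.75 against a median of 1.52 over all genes, with 747 genes above it. By title code, the SD in ovoid IL6 was 2.02 in c6186 (n = 4) and 0.074 in c9007 (n = 2). In tubular IL6 it was 0.85 in c6186 and 1.35 in c9007 (n = 2 each), around means of 9.64 and 7.09 log2 CPM. The spread of the IL6 groups thus includes differences within and between codes, and code and treatment cannot be told apart. These ratios rest on 4 to 6 conceptuses a group and were not tested.

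**Figure D4:**
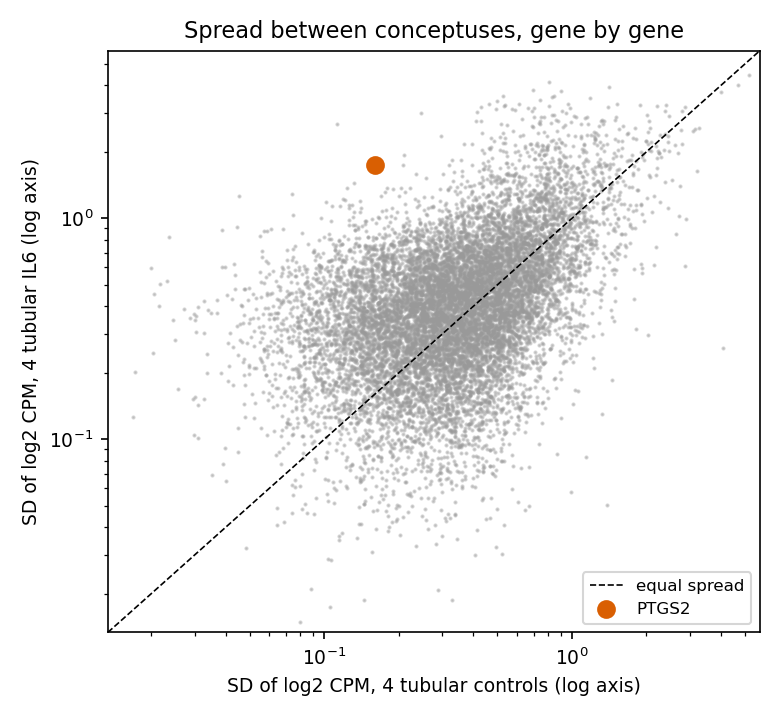
SD of log2 CPM between the 4 tubular controls (x axis) and between the 4 tubular IL6 conceptuses (y axis), both log axes, with a grey point for each of 12632 genes and a dashed line at equal spread. PTGS2 (orange) lies far above the line, at 0.160 in controls and 1.74 with IL6.

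No relation of PTGS2 with 3 library measures passed a permutation test over the 19 deep libraries. Its log2 CPM had r = 0.087 with the log2 total count (permutation p = 0.684, Spearman rho = 0.083, permutation p = 0.733), and 0.19 without the 2 libraries farthest from the median total. With the mitochondrial share of counts it had r = 0.069 (permutation p = 0.792, rho = 0.011, permutation p = 0.972), and 0.087 without the 2 farthest. With the number of genes that had a count it had r = -0.091 (permutation p = 0.734, rho = -0.22, permutation p = 0.356), and 0.0014 without them. All 3 adjusted p-values were 0.792. After group and sex means were removed, r was -0.41 with the log2 total, 0.24 with the mitochondrial share and -0.41 with the number of genes. After title code means were removed, these were -0.055, 0.33 and -0.14. These residual r were not tested.

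The genes beside PTGS2 on chromosome 16 had r of at most 0.44 to it. Within 500 kb the annotation lists 8 other genes, of which 4 passed the expression filter. The nearest, on the plus strand from 67906979 to 68081283 and 171349 bases away, had a median of 3.75 CPM (1.45 to 43.9), with r = -0.14 and rho = -0.032 to PTGS2 over the 19 deep libraries. In the RefSeq gene table of the assembly ARS-UCD2.0 the protein-coding neighbours of PTGS2 are PDC and PLA2G4A, the latter encoding a phospholipase A2 that releases arachidonic acid, but the identifiers of the files could not be matched to that table. The other 3 expressed neighbours had r of 0.13, 0.32 and 0.44. The highest of these belonged to the gene from 67461867 to 67498396, whose group means lay between 29.8 and 33.5 CPM while those of PTGS2 ran from 163 to 630. These 4 correlations are descriptions over libraries that also share depth and group.

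Genes whose log2 CPM followed PTGS2 were sought over the 19 deep libraries, among 12631 other genes. At a permutation p adjusted over these genes, 223 followed it (1.77%) and 21 ran opposite to it (0.166%), with r from 0.69 to 0.93 and from -0.86 to -0.69. The 223 lay on 31 chromosomes or scaffolds, 10 of them (4.48%) on chromosome 16, which holds 3.01% of the genes tested. Their median level was 5.76 log2 CPM, above the 4.90 of all genes tested, and the 21 had a median of 2.73. None was mitochondrial, among 22 mitochondrial genes tested. The files pair no identifier with a symbol, so only the 2 at each end are named.

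ENSBTAG00000012263 (chromosome 2, 129367152 to 129417868) was the gene most like PTGS2, with r = 0.93 and Spearman rho = 0.94 over 19 libraries. Its permutation p of 1e-05 was the smallest that could be given (adjusted p = 0.00665 for r and 0.0253 for rho). In tubular IL6 it measured 6.40, 10.6, 3.72 and 1.84 CPM in replicates 1 to 4, in the same order as PTGS2 in that group. The order did not match in the other groups. In tubular controls the gene measured 7.53, 6.80, 6.87 and 5.99 CPM, where PTGS2 measured 604, 679, 692 and 546. The lowest value of ENSBTAG00000012263, 1.53 CPM, and its highest among these libraries, 10.6, came from the conceptuses lowest and highest in PTGS2. The gene was picked for its r over these libraries, so these likenesses follow from the choice and are no separate support. Without the 2 libraries farthest from the PTGS2 median, ovoid IL6 replicates 1 and 4, r was 0.93 (permutation adjusted p = 0.042). It was 0.78 in the 9 deep controls and 0.96 in the 10 IL6 conceptuses. In the 13 libraries outside c6186 it was 0.91, where 0 genes passed and the lowest adjusted p was 0.355. It was 0.91 after group and sex means were removed (permutation adjusted p = 0.082) and 0.93 after title code means (permutation adjusted p = 0.327). Over all 20 libraries r was 0.77, and the shallow ovoid control replicate 3 had the highest value of this gene, 11.7 CPM. It is a gene of low level that overlaps 1 other annotated gene, and counting ignored strand.

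ENSBTAG00000021286 (chromosome 1, 142814827 to 142872558) came next, with r = 0.92 and rho = 0.91 (permutation p = 1e-05 for both, adjusted p = 0.00665 and 0.0253). Its group means stood in the order of those of PTGS2: 65.3 ± 11.2 CPM (SD, n = 4) in tubular controls, 54.9 ± 18.0 (SD, n = 4) in tubular IL6, 43.1 ± 19.96 (SD, n = 6) in ovoid controls and 27.7 ± 13.9 (SD, n = 6) in ovoid IL6. This gene too was picked for its r, so the order of its group means is no separate support. The ovoid control mean includes the shallow replicate 3, at 2.92 CPM, while the median of that group was 50.1 CPM. Without the 2 farthest libraries r was 0.83 (permutation adjusted p = 0.252), and it was 0.69 in the deep controls and 0.91 in IL6 conceptuses. Over all 20 libraries r was 0.72. 0 other annotated genes overlap it.

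In the other direction, ENSBTAG00000002866 (chromosome 11, 47351626 to 47386204) had r = -0.86 and rho = -0.84 (permutation p = 2e-05 and 5e-05, adjusted p = 0.00871 and 0.0486). It was highest, at 61.8 CPM, in ovoid IL6 replicate 1, where PTGS2 was lowest, and measured 22.5 to 31.4 CPM in tubular controls. Without the 2 farthest libraries r was -0.74 (permutation adjusted p = 0.363). ENSBTAG00000011905 (chromosome 15, 38367194 to 38444339) had r = -0.81 and rho = -0.72 (permutation p = 4e-05 and 0.00069, adjusted p = 0.011 and 0.0808). It too peaked in ovoid IL6 replicate 1, at 102 CPM, and r was -0.58 without the 2 farthest libraries (permutation adjusted p = 0.568) and -0.35 in the deep controls. Both genes were picked for their r over these libraries, so where they peak is no separate support.

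**Figure D5:**
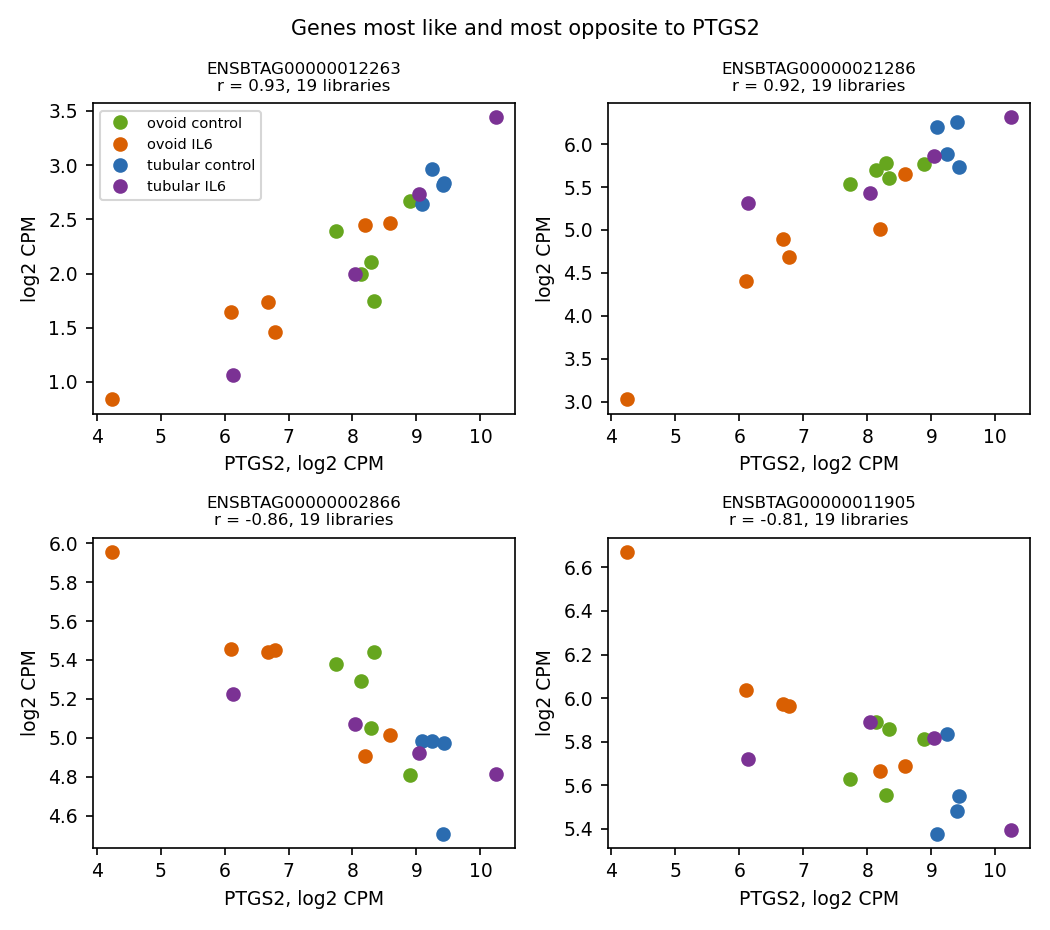
Log2 CPM of the 2 genes most like PTGS2 (top) and the 2 most opposite to it (bottom) against PTGS2 log2 CPM, with a point for each of 19 libraries coloured by group. ENSBTAG00000012263 (r = 0.93) is lowest where PTGS2 is lowest and highest where it is highest. It shows no steady rise between PTGS2 values of 7.73 and 8.33. In ENSBTAG00000011905 (r = -0.81) ovoid IL6 replicate 1 stands alone at the upper left.

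The number of genes called depended on few conceptuses. In place of 244, 11 were called without ovoid IL6 replicate 1 (9 of them among the 244), 66 without ovoid IL6 replicate 4, 137 without tubular control replicate 2 and 160 without ovoid IL6 replicate 5. Without both of the farthest libraries 3 were called (0.0238%), with 878 of 12597 genes at an unadjusted p under 0.05. By Spearman's rho 13 were called (0.103%), with all 20 libraries 18 (0.142%), and in the 10 IL6 conceptuses 33 (0.26%). After the log2 total was removed, 618 were (4.89%). Prior counts of 0.5 and 5 gave 2% and 1.81%, RLE factors 1.94% and every gene of the expression filter 1.51%. Within groups or within title codes, where PTGS2 values were exchanged only among conceptuses of a group or code, 0 genes passed, with 3770 and 1831 of 12631 at an unadjusted p under 0.05. In the main run, which gave the 244, 2299 of 12631 were under it, and in the 10 IL6 conceptuses 3366 of 12682. The lowest permutation adjusted p was 0.063 within groups and 0.327 within title codes. All 223 and all 21 had the same sign of r after group and sex means were removed, with medians of 0.74 and -0.67, against 9994 of all 12631 genes. In the 9 deep controls 206 of the 223 and 21 of the 21 had that sign, against 8847 of all 12631 genes, and 0 passed, with 654 of 12575 at an unadjusted p under 0.05. These counts share libraries with the list itself, so they describe it and are no independent support.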

How the data were processed

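The authors deposited raw fragment counts per Ensembl gene for 20 conceptuses, from featureCounts 2.0.1 run unstranded on exons and added up for each gene. Alignments had duplicates removed and the annotation was release 105 on ARS-UCD1.2, per the file headers. The submitters' processing notes list HISAT2, Picard and SAMtools, with versions not given in the sources used here. PTGS2 and the lists were chosen with earlier results of these data known. 0 identifiers matched the gene table at hand, so the prostaglandin pathway and cell type marker lists were not used and the tissue label was not checked against markers. No sequence is printed.

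Genes passing the default filter of edgeR 4.0.16 by group (14875) entered 1 robust quasi-likelihood model with TMM factors, 4 groups and sex, so the groups share their spread. A Benjamini-Hochberg adjusted p under 0.05 over all genes was the threshold. SE is the fold change over the square root of F. Each library is a separate conceptus. Log2 CPM used a prior count of 2. Relations with PTGS2 used Pearson's r, 100000 permutations and genes averaging 1 or more in log2 CPM. Genes named are PTGS2, those within 500 kb and the 2 largest r on each side. Scripts were tested on simulated data. Depth was 329666 to 13940103 counts. Other tools were R 4.3.3, limma 3.58.1, DESeq2 1.42.0, Python 3.11.15, numpy 2.4.6 and matplotlib 3.10.9.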

Additional observations from a re-analysis of the deposited data

How the results depend on the processing

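PTGS2 was called in no comparison under any alternative tried: RLE factors, DESeq2, no low-count filter, no sex term, only deep libraries, each conceptus or title code left out, a random block or a fixed term for the code, fits on 2 groups, and permutation tests. Its sign turned in a few of these. The tubular IL6 value became 0.0625 without tubular IL6 replicate 4 and 0.34 without c9007. The difference of the IL6 effect became -0.34 without tubular IL6 replicate 2 and -0.47 without c6186. The sex value became 0.0868 without tubular IL6 replicate 2 and 0.0203 in the permutation test. The cause was not tested.

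With 1 conceptus left out, the log2 fold changes ran from -1.78 to -0.61 for IL6 in ovoid, -1.18 to 0.0625 for IL6 in tubular, -1.24 to -0.39 for IL6 over both, -0.34 to 1.07 for the difference, 1.04 to 1.33 for shape in controls, 0.75 to 2.40 for shape in IL6, 0.92 to 1.87 for shape over both and -0.90 to 0.0868 for sex. The 244 genes related to PTGS2 became 11 to 269 with 1 library left out, 13 by Spearman, 18 with all 20 libraries, 3 without the 2 farthest, 0 within groups and 0 within title codes, 618 after the log2 total was removed and 441 with limma. At an unadjusted p under 0.05 there were 2299 genes in the main run, 3770 within groups and 1831 within title codes. Chosen after seeing the data, fits without c6186 and on controls gave 0 (697 and 654 genes at an unadjusted p under 0.05) and on IL6 conceptuses 33, with fewer libraries. The comparison of shape within title codes was also added after seeing the data. No paired analysis was possible because replicate numbers follow accession order and match no conceptus across groups. The title codes that ovoid and tubular conceptuses share served instead, with log2 differences of 1.32 within codes and 1.38 with the code as a term. In ovoid control replicate 3, 44 counts limit the PTGS2 value.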
